A study of Mus musculus with 8 samples.

Results

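Chromatin sites of Qki-5 and PPARb were compared in oligodendrocytes taken freshly from mouse brain. The sites came from 2 peak lists of chromatin immunoprecipitation with sequencing (ChIP-seq), which counts the DNA fragments that an antibody pulls down with its protein. A Qki-5 and a PPARb peak on chromosomes 1 to 19, X or Y were taken as 1 shared site when their centres lay less than 200 bp apart, each peak entering 1 pair at most. The 8375 Qki-5 and 1391 PPARb peaks gave 8704 sites, of which 1062 were shared, 7313 held Qki-5 alone and 329 held PPARb alone. They stem from 9766 of the 109649 peaks on these chromosomes in the 6 lists of the series.

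The brain cells came from C57BL6 mice at passage 0 and were pulled out with magnetic beads for O4, an antigen on the surface of oligodendrocytes that late precursors carry too. The Qki-5 antibody was made by the submitters and the PPARb antibody was a commercial one. How many brains were pooled, and the age of the mice, are not stated in the sources. As a second cell kind, 4 lists for Qki-5, PPARb, the HA tag and RNA polymerase II (Pol II) came from oligodendrocytes differentiated from neural stem cells. These were of an FvB and C57BL6 hybrid background at passage 7, carried ectopic PPARb, and are labelled HA-PPAR. Each antibody and each input had 1 library, so no difference below can be set against a spread between replicates, and no test was made. A single input library served for calling both brain-cell lists.

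Qki-5 is the nuclear isoform of Quaking, a STAR-family protein known for binding RNA that carries the letters ACUAA and for its need in myelin formation. PPARb, the product of Ppard, is a nuclear receptor that is switched on by fatty acids. It binds DNA together with a retinoid X receptor (RXR) at direct repeats of the half-site AGGTCA, and is known for turning on genes of fatty acid oxidation.

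The letters under the tallest promoter sites of each class come first, since they show what both antibodies met. Promoter sequences were matched from RefSeq on GRCm38.p6, the assembly also called mm10, for 17492 of 21887 protein-coding genes. Each line is the 250 bases before a start site, 5′ to 3′ on the gene's own strand, and capitals mark letters of a searched motif on either strand. The motifs were the nuclear receptor half-site AGGTCA, the GC box GGGCGG, the ETS-type motif CCGGAAG, the CCAAT box and the E-box CACGTG. Also searched were the CRE motif TGACGTCA, the NRF1-type motif CGCATGCG and ACTAA, the DNA form of the Quaking letters. Hjurp (chr1:88277580-88277829, minus strand), Neurl4 (chr11:69901566-69901815, plus), Senp8 (chr9:59750650-59750899, minus) and Ubald2 (chr11:116433844-116434093, plus) held both peak centres of a shared site. Setd1a (chr7:127777139-127777388, plus) and Aph1a (chr3:95893671-95893920, plus) belong to PPARb-alone sites, with the Aph1a centre 7 bp past the start. Cltc (chr11:86757568-86757817, minus) and Amdhd2 (chr17:24163734-24163983, minus) belong to Qki-5-alone sites.
Hjurp: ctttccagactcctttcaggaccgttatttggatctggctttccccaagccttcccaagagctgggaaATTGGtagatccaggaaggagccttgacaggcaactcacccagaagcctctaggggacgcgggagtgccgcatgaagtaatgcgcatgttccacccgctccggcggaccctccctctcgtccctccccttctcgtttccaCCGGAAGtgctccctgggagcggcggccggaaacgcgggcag
Neurl4: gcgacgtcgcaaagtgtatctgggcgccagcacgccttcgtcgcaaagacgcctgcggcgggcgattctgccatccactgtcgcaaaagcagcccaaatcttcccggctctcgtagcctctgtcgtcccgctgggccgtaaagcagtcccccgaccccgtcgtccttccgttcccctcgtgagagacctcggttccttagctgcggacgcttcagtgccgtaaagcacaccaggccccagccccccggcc
Senp8: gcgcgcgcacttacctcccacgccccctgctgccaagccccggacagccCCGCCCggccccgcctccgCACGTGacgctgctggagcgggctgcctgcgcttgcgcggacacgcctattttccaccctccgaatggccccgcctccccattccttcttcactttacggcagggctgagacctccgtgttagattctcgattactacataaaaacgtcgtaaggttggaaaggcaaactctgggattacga
Ubald2: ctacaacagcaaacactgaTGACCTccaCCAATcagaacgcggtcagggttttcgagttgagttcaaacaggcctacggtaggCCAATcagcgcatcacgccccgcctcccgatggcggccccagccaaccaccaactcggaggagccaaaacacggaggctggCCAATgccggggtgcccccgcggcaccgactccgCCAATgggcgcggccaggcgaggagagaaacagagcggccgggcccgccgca
Setd1a: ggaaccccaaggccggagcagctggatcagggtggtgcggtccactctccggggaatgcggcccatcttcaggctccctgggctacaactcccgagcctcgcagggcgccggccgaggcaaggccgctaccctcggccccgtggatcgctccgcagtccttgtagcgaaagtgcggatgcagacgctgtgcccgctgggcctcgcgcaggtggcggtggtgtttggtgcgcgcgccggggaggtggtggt
Aph1a: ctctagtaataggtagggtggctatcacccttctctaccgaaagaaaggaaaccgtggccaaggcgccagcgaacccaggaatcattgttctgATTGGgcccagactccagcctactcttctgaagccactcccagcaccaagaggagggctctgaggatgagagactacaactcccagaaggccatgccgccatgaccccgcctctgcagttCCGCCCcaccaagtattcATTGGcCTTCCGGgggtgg
Cltc: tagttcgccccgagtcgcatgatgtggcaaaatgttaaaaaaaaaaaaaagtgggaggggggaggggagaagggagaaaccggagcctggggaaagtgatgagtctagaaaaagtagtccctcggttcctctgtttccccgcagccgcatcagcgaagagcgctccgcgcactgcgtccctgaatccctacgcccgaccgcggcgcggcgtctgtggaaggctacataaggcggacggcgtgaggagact
Amdhd2: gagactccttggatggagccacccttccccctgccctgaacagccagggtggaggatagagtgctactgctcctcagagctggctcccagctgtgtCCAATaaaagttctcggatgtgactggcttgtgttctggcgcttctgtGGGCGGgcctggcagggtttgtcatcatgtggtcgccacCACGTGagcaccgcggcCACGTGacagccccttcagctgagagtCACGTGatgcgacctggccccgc

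Among the 8 windows only Ubald2 held an AGGTCA, read on the opposite strand, and it also held 4 copies of CCAAT. Hjurp held CCGGAAG and a CCAAT on the opposite strand, Senp8 a GC box and an E-box, and Neurl4 none of the 8 motifs. Aph1a held a GC box, CCGGAAG and CCAAT, while Setd1a and Cltc held none. Amdhd2 held 3 E-boxes, a CCAAT and a GC box. A match is a run of letters and no measured binding site.

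Motif shares were then counted over the promoter windows that fell into a class by the site centres they held. Some windows that held a centre fell into no class and entered only the count over all windows. These windows run from 250 bases before to 50 after the start, and the search covered the 250. AGGTCA stood in 49 of 631 shared windows, or 7.77% (95% exact interval 5.8 to 10.1). It stood in 8.59% (7.67 to 9.58) of 3422 Qki-5-alone windows and 7.95% (3.26 to 15.7) of 88 PPARb-alone windows. All 32851 windows of the table held it in 14.02%. These belong to 27025 genes, more than the 21887 protein-coding ones, so this background is not limited to protein-coding genes. A pair of AGGTCA half-sites in the same direction with 1 base between them, at most 2 of 12 letters mismatched, stood in 1.90% (0.986 to 3.30) of shared windows. It stood in 2.22% (1.75 to 2.77) of Qki-5-alone, 1.14% (0.0288 to 6.17) of PPARb-alone and 3.24% of all windows. The half-site was therefore rarer in shared and Qki-5-alone windows than in all windows of the table. The PPARb-alone interval included the share of all windows.

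The letters that were common under the sites were those of GC-rich promoters. The GC box stood in 66.9% of shared, 67.1% of Qki-5-alone and 72.7% of PPARb-alone windows, against 32.7% of all windows. CCGGAAG stood in 25.7% (22.3 to 29.3), 23.0% (21.6 to 24.4) and 11.4% (5.59 to 19.9) in the same order, against 6.91% of all. CGCATGCG stood in 6.02% (4.30 to 8.17), 5.41% (4.67 to 6.22) and 11.4% (5.59 to 19.9), against 1.55%. PPARb-alone windows thus had the lowest share of CCGGAAG and the highest of CGCATGCG, on 10 windows each. The E-box stood in 11.7%, 10.6% and 9.09%, against 6.02%, and TGACGTCA in 3.96%, 4.09% and 2.27%, against 1.55%. CCAAT differed little from all windows, with 36.8%, 38.5% and 36.4% against 33.9%. ACTAA was rarer than in all windows, with 14.9%, 14.7% and 12.5% against 23.0%. Base composition moved with these shares. The median GC content was 64% in shared, 62.8% in Qki-5-alone and 65.2% in PPARb-alone windows against 52.4% in all, and the median number of CpG pairs was 22, 20 and 20 against 6. Its part in the motif shares was not tested.

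Most PPARb peaks of the brain cells lay on a Qki-5 peak, while most Qki-5 peaks had no PPARb partner. Of the PPARb list 76.4% (74.0 to 78.6) had a Qki-5 partner, and the same pairs made up 12.7% (11.98 to 13.4) of the Qki-5 list. The intervals here and above cover counting error only. The centres of the paired peaks lay close, at a median of 46 bp (quartiles 19 and 85). Of the pairs 53.7% were at most 50 bp apart, 80.9% at most 100 bp, and 13 had the same centre. At a limit of 50 bp the shared part of the PPARb list was 41.0%, and at 500 bp 82.5%.

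Some unpaired PPARb peaks sat just beyond the pairing distance. A Qki-5 centre lay within 400 bp of 78 of the 329 PPARb-alone peaks (23.7%) and within 1000 bp of 96. The median distance to the nearest Qki-5 centre was 16160 bp. The Qki-5-alone peaks were far from PPARb, with 1.12% (0.893 to 1.39) within 400 bp and a median of 278088 bp. The tallest such neighbours lay outside protein-coding genes near Pisd, the gene of phosphatidylserine decarboxylase, 383 bp apart at chr5:32713989-32714189 for Qki-5 and chr5:32713606-32713806 for PPARb. The Qki-5 peak stood at 27.5 and ranked joint 14th, and the PPARb peak at 21.8 ranked 2nd.

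The 2 libraries differed more in their yield than in their depth. They held 21832339 tags for Qki-5 and 18389111 for PPARb, with 0.85% and 0.12% of tags in peaks. The file headers give a threshold of 13 tags for either library, while the lowest tag counts deposited were 10 for Qki-5 and 11 for PPARb. The filter over input removed 4753 of 13435 candidate peaks (35.4%) for Qki-5 and 1953 of 3367 (58%) for PPARb. Of the PPARb peaks 62.3% held at most 15 tags, against 24.5% of the Qki-5 peaks. A Qki-5-alone site is one where no PPARb peak was called within the pairing distance, and a lower PPARb signal there would not be seen. The differentiated-cell lists held 13267 to 30175 peaks, with 1.39% to 4.62% of tags in peaks.

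Peak height is the authors' normalized tag count, in tags per 10000000, and is compared within a list only. Shared sites were the taller Qki-5 peaks, with a median of 12.4 (quartiles 9.62 and 15.1) against 8.7 (6.87 and 11.9) for Qki-5 alone. The input tags under both classes had the same median of 2.7, and the fold over input was 8.67 against 6.43. With the list cut into 10 groups by Qki-5 height, the partner share climbed at every step, from 1.91% (1.10 to 3.08) in the lowest group to 32.7% (29.6 to 36.0) in the tallest. Among the 100 tallest Qki-5 peaks 41 had a partner, and among the 10 tallest 6 had one. Even the tallest Qki-5 peaks were thus more often alone than shared, apart from the first 10.

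**Figure D1:**
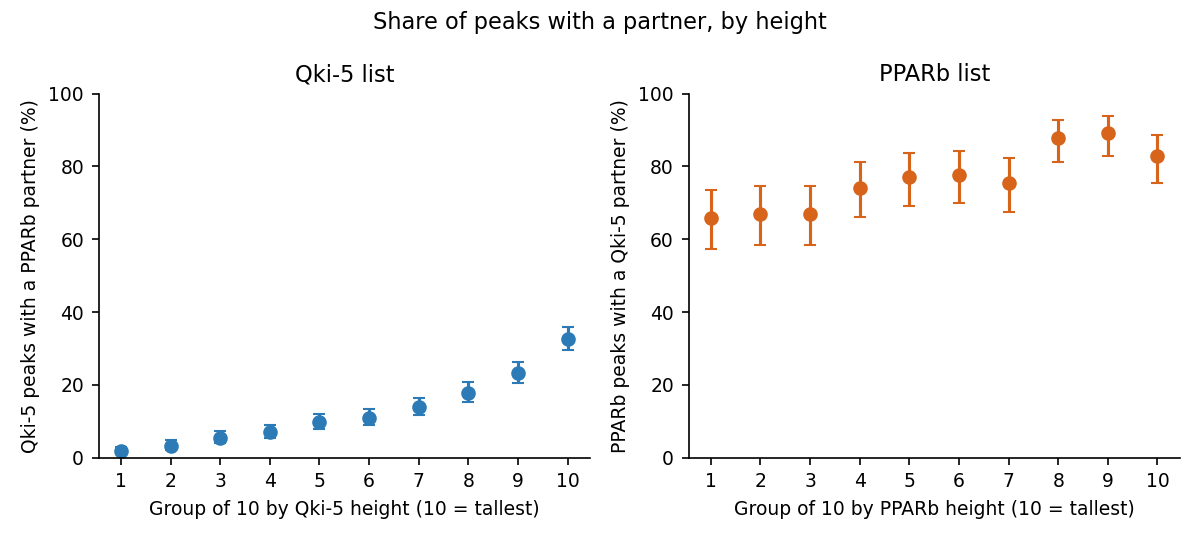
Share of peaks with a partner in the other list (vertical axis, percent) in 10 groups by peak height (horizontal axis, group 10 = tallest), for the Qki-5 list (left) and the PPARb list (right); bars are 95% exact intervals. The Qki-5 share rises from 1.91% to 32.7%, and the PPARb share runs from 65.7% in the lowest group to 89.2% in group 9 and 82.7% in the tallest.

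In the PPARb list most peaks had a partner in each of 10 height groups. The partner share was 65.7% (57.2 to 73.5) in the lowest group, 89.2% (82.8 to 93.8) in group 9 and 82.7% (75.4 to 88.6) in the tallest. Shared PPARb peaks had a median height of 8.16 (quartiles 7.07 and 9.24) and PPARb-alone peaks 7.61 (7.07 and 8.7), a gap of 1 tag at this depth, where 1 tag is worth 0.544. Their input tags had the same median of 2.3. Among the 100 tallest PPARb peaks 82 had a partner, and among the 10 tallest 5 had one. A site is called at a gene point when its centre lay within 1000 bp of the gene's start, or of either end for the 4395 genes with no start in the promoter table. Of the 7 tallest PPARb peaks, which were picked out after their heights were seen, 2 had a Qki-5 partner, 1 lay at a gene point, and 4 had no peak in any differentiated-cell list.

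Within the shared sites the taller Qki-5 peaks went with the taller PPARb peaks. The rank correlation was rho = 0.43 over the 1062 pairs, 0.43 over the 822 at gene points and 0.41 over the other 240. This is across sites of 1 library pair, which share an input and a threshold, and is no test. The median PPARb height rose through 5 groups of rising Qki-5 height as 7.07, 7.61, 8.16, 8.7 and 9.24, so 1 PPARb tag was gained at each step.

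**Figure D2:**
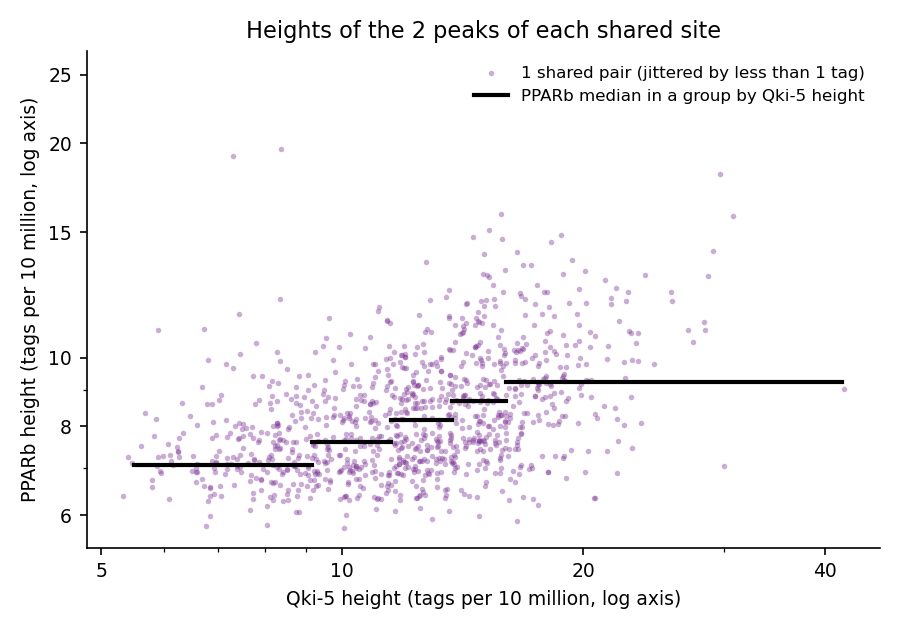
PPARb height against Qki-5 height of the 1062 shared sites (both in tags per 10000000, log axes); each point is 1 pair, shifted by less than the worth of 1 tag so that points do not hide each other, and black lines are the PPARb median in each of 5 groups by Qki-5 height. The medians climb from 7.07 to 9.24, with a wide scatter within each group.

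The shared sites that were tall in both lists lay almost all at gene points, where 77.4% of all shared sites lay. The 15 sites with the highest smaller percentile of the 2 heights included those at Hjurp, Rpl27, Neurl4, Senp8, Bcl2l1, Ubald2, Rap2a, Eftud2, Cox5a, Calm3, Ubr4, Snrpc, Nupl1 and Usp20. Of the 15 only the Bcl2l1 site lay away from a gene point, 7986 bp inside the gene of the anti-apoptotic protein BCL-XL. At Hjurp, the chaperone of the centromeric histone, the Qki-5 height was 29.8 (exact Poisson interval 22.98 to 37.95) over 9.8 input tags and the PPARb height 17.9 (12.35 to 25.2) over 7.5. The centres, at chr1:88277546-88277746 and chr1:88277540-88277740, lay 67 and 61 bp before the start in the window printed above. The differentiated cells had peaks there with a height of 52.5 for Qki-5 and 40.1 for PPARb, and the HA and Pol II lists had 57.8 and 16.9.

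The others of the 15 were at genes of varied function. At Rpl27, a protein of the large ribosomal subunit, the heights were 30.7 for Qki-5 and 15.8 for PPARb, with centres 1 bp apart. At Neurl4 they were 28.9 and 14.1 with the same centre, and at Senp8, a protease for the ubiquitin-like NEDD8, 19.2 and 13.6. Ubald2 had 21.1 and 13.1. The splicing genes among the 15 were Eftud2, of the U5 particle, with 18.8 and 13.1, and Snrpc, of the U1 particle, with 22 and 12.5. Cox5a, a subunit of cytochrome c oxidase, had 18.8 and 14.7, Usp20, a deubiquitinase, 18.3 and 14.7, and Ubr4, a ubiquitin ligase, 22.9 and 12.5. Calm3, a calmodulin gene, had 25.7 and 12.5, Nupl1, a nucleoporin gene, 19.7 and 12.5, and the GTPase gene Rap2a 20.2 and 13.1. Differentiated cells had a Pol II peak at 8 of these 15 sites, against 52.9% of all shared sites.

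The tallest Qki-5 peak of all was shared but not tall for PPARb. It stood at Kmt2a, a histone H3 lysine methyltransferase, at 42.1 (33.97 to 51.68), with a PPARb height of 9.24 (5.385 to 14.8). Mrpl47, of the mitochondrial ribosome, had 29.8 and 7.07. The pairs with the widest gap in that direction were at Ttc14 (17.4 and 5.98), Nme1 (16.5 and 5.98), Mfsd11 and Ube3c (20.6 and 6.53 each) and the clock gene Per2 (19.2 and 6.53). Their PPARb peaks held 11 or 12 tags, near the lowest that were called.

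The widest gaps the other way were at Etfa, Magi2, Dst, B3gnt6 and Ramac. Etfa, which passes electrons from fatty acid oxidation to the respiratory chain, had a Qki-5 height of 5.95 (3.171 to 10.18) and a PPARb height of 10.9 (6.643 to 16.8), and in differentiated cells a Qki-5 height of 13.8, a PPARb height of 16.9 and an HA height of 88.7. Inside Magi2, 102326 bp from the start, Qki-5 stood at 7.33 and PPARb at 19, the joint 5th tallest of its list. Inside Dst the heights were 6.87 and 10.9. Neither Magi2 nor Dst had a peak in any differentiated-cell list at these sites, and the same held for the tallest shared PPARb peak, inside Galnt2, at 19.6. These intragenic sites were called in the brain cells and not in the differentiated ones, while the Etfa site was called in both.

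The Qki-5-alone sites reached 34.4, against 42.1 for the shared ones. The tallest lay mostly at gene points, where 64.0% of all Qki-5-alone sites lay. The 10 tallest included those at Wwox (34.4, the 2nd tallest Qki-5 peak), Cltc (29.3), Amdhd2 (28.9), Ostc (28.4), Lamtor1 (27.5), Pisd (27.5), Trappc9 (26.6), Trim41 (25.7) and Taf6 (25.2). Cltc encodes the clathrin heavy chain, Ostc a subunit of the oligosaccharyl transferase, Lamtor1 a part of the lysosomal Ragulator and Taf6 a part of TFIID. At these 9 named sites the differentiated cells had a Qki-5, a PPARb and an HA peak, at Cltc of 32.1, 26.3 and 31.7. Of all Qki-5-alone sites 62.5% had a differentiated-cell PPARb peak, and of those in the tallest of 5 groups by Qki-5 height 86.6%. The 9 sites were picked for their height. That they had no PPARb partner in the brain cells follows from how the class was made. Near Pisd a brain-cell PPARb centre lay 383 bp away.

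Of the 10 tallest PPARb-alone sites 4 lay at gene points, against 49.8% of all PPARb-alone sites. The tallest PPARb peak of the list lay outside protein-coding genes, 20707 bp from Foxf1, a forkhead factor, at chr8:121063579-121063779, with a height of 32.1 (24.42 to 41.39) over 1.5 input tags. No Qki-5 centre was within 64519 bp, and no differentiated-cell list had a peak. The Pisd neighbour at 21.8 had none either. Tmcc3 (20.1, 568 bp before the start) had only an HA peak of 10.3, and Vit (19, inside the gene) only a PPARb peak of 8.9. These 4 sites had 1.5 to 2.3 input tags.

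The other tall PPARb-alone sites were found again in differentiated cells. Angptl4, an inhibitor of lipoprotein lipase and a known PPAR target, had a PPARb peak of 19 (13.26 to 26.47) inside the gene, at chr17:33779320-33779520, over 6.8 input tags. The differentiated cells had 39.2 for PPARb, 99 for HA and 15.5 for Qki-5 there, while no brain-cell Qki-5 centre was nearer than 18973 bp. Setd1a, a histone methyltransferase, had 15.8, Aph1a, a subunit of gamma-secretase, 15.2, and Get1, which helps insert tail-anchored proteins, 13.6, all at starts. Lmf1, a factor for lipase maturation, had 15.2 inside the gene, and a site 15475 bp before Aldh1l1, a folate enzyme that is widely used as an astrocyte marker, had 15.2. At Setd1a, Aph1a, Aldh1l1 and Get1 the differentiated cells had Qki-5 peaks of 15.5, 25.4, 25.4 and 20.5, so the Qki-5 antibody gave a peak there in the other cell kind.

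Shared sites were more often at gene points than either unpaired class. The share was 77.4% (74.8 to 79.9) for shared sites, 64.0% (62.9 to 65.1) for Qki-5-alone and 49.8% (44.3 to 55.4) for PPARb-alone sites. Another 12.5% of shared, 20.3% of Qki-5-alone and 30.1% of PPARb-alone sites lay elsewhere inside a gene, and 2.54%, 5.72% and 9.12% were over 50 kb from any. Exons, introns and UTRs were not told apart. The difference between shared and Qki-5-alone sites went with Qki-5 height. With only the 1391 tallest Qki-5 peaks it was -2.37 percentage points (-6.21 to 1.05), from 13.4 (10.6 to 16.1) in the full list. The first interval spans both signs, so no clear difference was left.

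**Figure D3:**
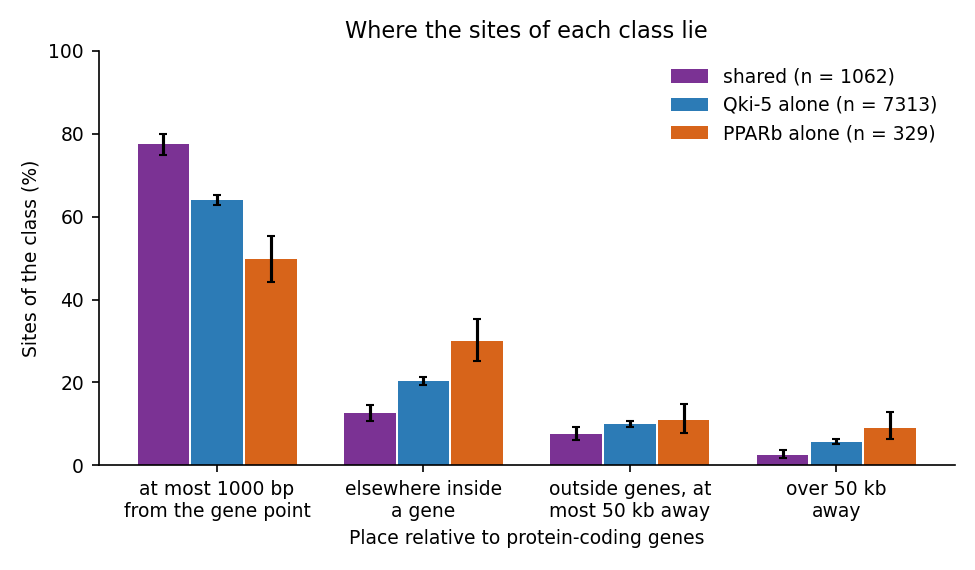
Share of the sites of each class (vertical axis, percent) by place relative to protein-coding genes (horizontal axis), where the gene point is the start or, for genes with no start in the table, either end; bars are 95% exact intervals. Shared sites (by their Qki-5 centre) lead at gene points with 77.4%, and PPARb-alone sites lead inside genes with 30.1% and beyond 50 kb with 9.12%.

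The shared sites sat just before the start. Where the start was known, the Qki-5 centres of 723 shared sites had a median position of -45 bp (quartiles -123 and 32), and 91.1% (88.8 to 93.1) lay within 250 bp. The 3866 Qki-5-alone centres had a median of -24 bp, with 87.0% within 250 bp. The 134 PPARb-alone centres spread wider, with a median of -37.5 bp and 70.1% (61.6 to 77.7) within 250 bp. The PPARb centre had no fixed side of the Qki-5 centre, being nearer the upstream end in 347 and the downstream end in 335 of 692 pairs, with a median offset of -2 bp. Of the shared sites 13.2% (11.2 to 15.4) had 2 or more genes within 1000 bp, against 8.45% (7.82 to 9.11) of Qki-5-alone and 6.38% (3.99 to 9.59) of PPARb-alone sites.

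The X chromosome held few PPARb peaks. Of the 1391 PPARb peaks 4 were on X, or 0.288% (0.0784 to 0.735), against 124 of the 8375 Qki-5 peaks, or 1.48% (1.23 to 1.76), and 1.51% to 1.70% in the 4 differentiated-cell lists. The 4 were at Bcap31 (8.7), Atp7a (7.07), Ldoc1 (6.53) and Shroom2 (5.98), and the Atp7a peak was the only shared one. So 1 of 124 X-linked Qki-5 peaks had a partner, 0.806% (0.0204 to 4.41), against 12.9% (12.1 to 13.6) of those on autosomes. The X-linked Qki-5 peaks were lower, with a median of 6.87 against 9.16, and their input tags were lower too, at 1.8 against 2.7. The sources do not state the sex of the mice, and the part of height in this was not tested.

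Most brain-cell sites had a peak less than 200 bp away in the differentiated cells, and shared sites most often. Of the shared sites 86.8% (84.6 to 88.8) had a differentiated-cell Qki-5 peak and 81.8% (79.4 to 84.1) a PPARb peak, and 78.2% had both. Of the Qki-5-alone sites 67.0% (65.9 to 68.0) had a Qki-5 peak and 62.5% (61.4 to 63.6) a PPARb peak. A site with no PPARb peak in the brain cells thus had one in the differentiated cells in most cases. Of the PPARb-alone sites 47.1% (41.6 to 52.7) had a Qki-5 peak, 49.8% (44.3 to 55.4) a PPARb peak and 50.5% an HA peak. The shares with none of the 4 lists were 7.25%, 22.3% and 30.1% for shared, Qki-5-alone and PPARb-alone sites.

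The size of this difference varied with place and with height. At gene points 97.8% (96.6 to 98.7) of shared and 93.9% (93.1 to 94.5) of Qki-5-alone sites had a peak of any of the 4 lists, and elsewhere 75.4% (69.5 to 80.7) and 49.0% (47.1 to 51.0). In the lowest of 5 groups by Qki-5 height 72.7% (57.2 to 85.0) of shared and 39.9% (37.5 to 42.3) of Qki-5-alone sites had a differentiated-cell Qki-5 peak, and in the tallest group 93.2% (90.5 to 95.3) and 90.5% (88.7 to 92.1). Among low Qki-5 peaks, a PPARb partner thus went with presence in the other cell kind, and among tall ones the classes were close. With only the 1391 tallest Qki-5 peaks the difference for any of the 4 lists was 0.457 percentage points, from 15.02 in the full list. For Pol II the shares at gene points were 57.8% (54.3 to 61.2) of shared and 58.3% (56.9 to 59.8) of Qki-5-alone sites. Elsewhere they were 36.2% (30.2 to 42.7) and 17.6% (16.2 to 19.1), and over all sites 52.9% (49.9 to 56.0) and 43.7% (42.5 to 44.8).

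**Figure D4:**
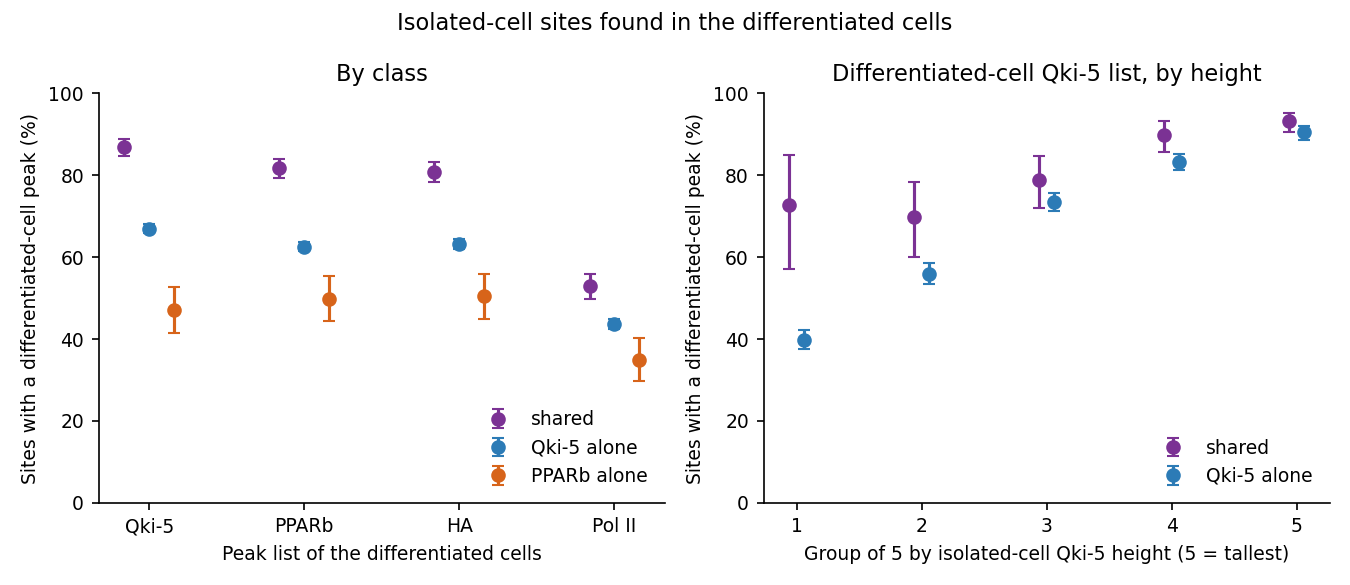
Share of brain-cell sites with a differentiated-cell peak (vertical axes, percent), by class and differentiated-cell list (left) and by 5 groups of brain-cell Qki-5 height for the Qki-5 list (right); points are shares and bars 95% exact intervals. Shared sites lie highest in all 4 lists, and the gap to Qki-5 alone narrows from the lowest group, 72.7% against 39.9%, to the tallest, 93.2% against 90.5%.

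The sites that were found again ranked high in the differentiated cells. Shared sites with a differentiated-cell Qki-5 peak had a median percentile of 88.9 in that list, and with a PPARb peak 84.4. For Qki-5-alone sites these medians were 77.1 and 69.7, and for PPARb-alone sites 79.5 and 80.2. For PPARb peaks by height, the share with a differentiated-cell PPARb peak went from 66.7% (60.8 to 72.2) in the lowest of 5 groups to 80.6% (75.4 to 85.1) in the tallest.

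By gene, shared sites reached far fewer genes than Qki-5-alone sites. Of 21887 protein-coding genes 962 (4.40%) had a shared site at their gene point, 5046 (23.1%) had a Qki-5-alone site and no shared one, and 179 (0.818%) had a PPARb-alone site and no shared one. Of the last, 85 also had a Qki-5-alone site and 94 had no Qki-5 site. Among the 6008 genes with any Qki-5 site 16.01% had a shared one. These shares are the background for the gene lists that follow, whose counts cover sites at gene points only.

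Genes of the protein-making machinery had sites in most cases. Of 78 cytosolic ribosomal protein genes 12 had a shared site (15.4%, 8.21 to 25.3) and 52 a Qki-5-alone site, led by Rpl27, Rpl13a (14.2 and 11.4 for Qki-5 and PPARb) and Rps12 (13.7 and 11.4). Of 35 translation factor genes 7 had a shared site (20%, 8.44 to 36.9) and 20 a Qki-5-alone one, with Eif4b at 20.6 and 10.9, Eef1b2 at 15.1 and 9.24 and Pabpc1, the poly(A)-binding protein, at 19.7 and 8.16. Of 43 splicing factor genes 11 had a shared site (25.6%, 13.5 to 41.2) and 24 a Qki-5-alone one. These included Ddx5 (18.3 and 12), Ptbp1 (20.2 and 9.24) and Hnrnpa1 (11.9 and 9.79), and the Ddx5 site had no peak in any differentiated-cell list. None of the 3 lists had a gene with PPARb alone. Their Qki-5 peaks were tall, with medians of 13.7, 13.3 and 12.4 against 11 over all genes with a Qki-5 site, and partner shares rise with height, so the part of height in these counts was not tested.

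Proteasome, chaperone, stress-induced and histone genes were counted in the same way. In all but the proteasome list the interval of the shared share included the background of 4.40%. Of 35 proteasome and ubiquitin genes 6 had a shared site (17.1%, 6.56 to 33.7) and 20 a Qki-5-alone one. Psmd1 stood at 17.4 and 9.79 and Psmb5 at 17.4 and 9.24. Psmd13 had PPARb (8.7) and no Qki-5 site. Of 28 heat shock and chaperonin genes 4 had a shared site (14.3%, 4.03 to 32.7). Hspd1 and Hspe1 share 1 of them (22.9 and 9.79), and Hsp90b1 had 19.7 and 9.79. Another 15 had Qki-5 alone, and 2, Hspa8 (8.16) and Cct3 (7.07), had a PPARb-alone peak as well. Of 40 immediate-early and stress-induced genes 3 had a shared site (7.5%, 1.57 to 20.4), at Mcl1 (18.8 and 10.9), Klf6 (18.8 and 9.24) and Gadd45a (8.7 and 7.07). Another 21 had Qki-5 alone. Egr1 was one of these, at 8.24, and had a PPARb peak of 6.53 at a distance of 571 bp as well. Of 29 replication-type histone genes none had a shared site, which allows a share of up to 11.9%. Of them 6 had Qki-5 alone, led by H4c4 (11.5) and H1f0 (10.1). That is 20.7% (7.99 to 39.7), near the 23.1% of all protein-coding genes.

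Mitochondrial genes also had sites in most cases. Of 49 genes of the respiratory chain and ATP synthase 9 had a shared site (18.4%, 8.76 to 32.0) and 27 a Qki-5-alone one. Cox5a led with 18.8 and 14.7, followed by Ndufa10 with 16.5 and 9.24, and Ndufs1 shares its site with Eef1b2. Ndufb3 had PPARb (8.7) and no Qki-5 site. Of 29 genes of the citric acid cycle and pyruvate entry 3 had a shared and 18 a Qki-5-alone site. The shared ones were Cs, citrate synthase, with 16 and 8.16, Mpc2, of the pyruvate carrier, with 12.4 and 6.53, and Dlat, of pyruvate dehydrogenase, with 6.41 and 7.07.

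Genes of fatty acid oxidation, the known field of PPARs, held low Qki-5 peaks, with a median of 9.62 against 11 over all genes with a Qki-5 site. Of 27 fatty acid oxidation genes 4 had a shared site (14.8%, 4.19 to 33.7), 9 had Qki-5 alone and 2 a PPARb-alone site. The shared ones included Etfa and the head-to-head pair Hadha and Hadhb, the trifunctional protein, at 1 site of 16.9 and 8.16. Acadl, the long-chain acyl-CoA dehydrogenase, had a PPARb peak of 13.1 (8.362 to 19.42) 447 bp past the start and a Qki-5 peak of 9.62 whose centre was 325 bp from it, and in differentiated cells 17.8 for PPARb and 87.1 for HA at the PPARb site. Slc25a20, the carnitine carrier, had PPARb alone at 7.07, with 38.8 for HA. Cpt1a, the gate of mitochondrial fatty acid entry, had 1 Qki-5 peak of 8.24 inside the gene and no PPARb peak within 5000 bp, and neither Pdk4 nor Plin2, known PPAR targets, had any peak of either list there. At their gene points, 2 of 24 other known PPAR targets had a shared site (8.33%, 1.03 to 27), Klf10 (11.9 and 8.16) and Ech1 (9.16 and 7.07). There 6 had Qki-5 alone and Slc27a1, a fatty acid carrier, PPARb alone (6.53). Away from gene points, PPARb-alone peaks included one of 9.79 inside Klf10. Txnip, one of the 6, had a PPARb-alone peak of 7.61 at 2585 bp before its start.

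In the peroxisome and lipid synthesis lists the interval of each shared share included the background of 4.40%. The shares were 3.125% for peroxisomal, 6.45% for fatty acid synthesis, 10.3% for cholesterol and 8.33% for sphingolipid and galactolipid genes. Of 32 peroxisomal genes 1, Pex10 (7.79 and 6.53), had a shared site, 12 had Qki-5 alone, and 2 had a PPARb-alone peak. Far1, at 7.07, was one of the latter. Of 31 fatty acid synthesis genes 2 had a shared site, Fasn (11.9 and 9.24) and Acly (7.79 and 9.24), and 12 had Qki-5 alone. Of 29 cholesterol genes 3 had a shared site, at Srebf2 (11.9 and 10.3, the same centre), Insig1 (13.7 and 8.7) and Lss (12.4 and 7.61), and 14 had Qki-5 alone. Srebf1 had separate peaks, Qki-5 at 14.7 and PPARb at 8.16, with 10041 bp between their centres. Of 24 sphingolipid and galactolipid genes 2 had a shared site, Degs1 (9.62 and 8.16) and Galc (8.24 and 7.07), and 10 had Qki-5 alone.

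**Figure D5:**
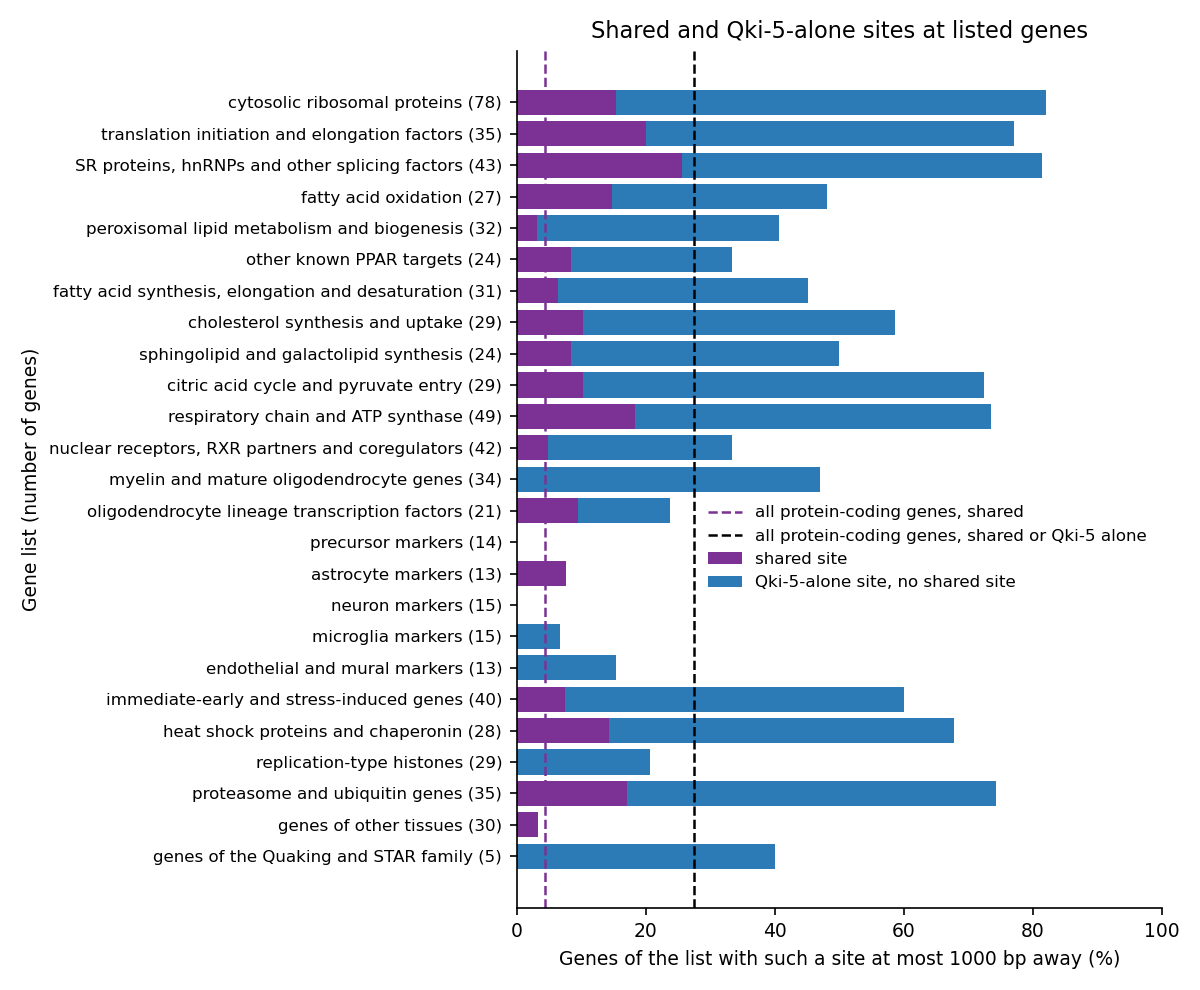
Share of the genes of each list (horizontal axis, percent) with a shared site (purple) or with a Qki-5-alone site and no shared one (blue) at most 1000 bp from the gene point; numbers in brackets are genes in the list. Dashed lines mark all protein-coding genes, at 4.40% for shared sites and at the sum of 4.40% and 23.1% for both; myelin genes have blue only.

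At their gene points, 16 of the 34 myelin genes held Qki-5 and none held PPARb. For genes with no start in the promoter table, starts inside the gene were not covered. The 16 Qki-5-alone sites make up 47.1% (29.8 to 64.9) of the list of myelin and mature oligodendrocyte genes. The count of 0 allows a shared share of up to 10.3%, which includes the background of 4.40%. Away from gene points, PPARb-alone peaks lay inside Fa2h, a fatty acid hydroxylase gene (7.07), and 5227 bp before the start of Mobp (6.53). The tallest of the 16 Qki-5 peaks was at Sirt2, a deacetylase of the myelin sheath, with 15.1, then Ndrg1 with 10.5. Cnp stood at 8.7 (5.24 to 13.59) and Mag, the myelin-associated glycoprotein, at 5.95 (3.171 to 10.18). These were low peaks, with a median of 8.24 against 11 over all genes with a Qki-5 site, and 104 of the 1426 Qki-5 peaks from 7.33 to 8.24 had a partner, or 7.29% (5.998 to 8.77). At these heights the absence of a partner cannot be told apart from a PPARb signal too low to be called.

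Among Mbp, Mag, Mog and Cnp only Mbp, which encodes myelin basic protein, had a PPARb peak within 5000 bp. Mbp had no start in the promoter table, so its gene point was either outer end, and any start inside the gene was not covered. At that gene point it had no site, but 4 Qki-5 and 2 PPARb peaks lay within 5000 bp of the gene. Whether the shared site among them lies at a start inside the gene was not tested. A shared site inside the gene, at chr18:82554353-82554553 for Qki-5, stood at 10.1 (6.315 to 15.26) for Qki-5 and 7.07 (3.764 to 12.09) for PPARb. The Qki-5-alone peaks inside the gene stood at 9.62, 8.24 and 7.33, and a PPARb-alone peak of 8.7 lay beyond its end. The differentiated cells had peaks at the first and second of the Qki-5-alone sites and none at the shared one. No peak of either list lay within 5000 bp of Mog, which encodes a glycoprotein of the outer sheath.

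Of 21 genes of oligodendrocyte transcription factors 5 had a Qki-5 site, while 27.9% of all protein-coding genes had a site of any class. There were 2 with a shared site (9.52%, 1.18 to 30.4, against 4.40% of all genes), Yy1 (15.6 and 9.79) and the chromatin remodeller Smarca4 (13.7 and 5.98), and 3 had Qki-5 alone, Zfp24 (15.6), Nfib (14.2) and Chd7 (6.87). Sox10, a master factor of the lineage, had a Qki-5 peak of 7.79 beyond one end and a PPARb peak of 9.79 beyond the other, and Olig2 a Qki-5 peak of 7.33, all outside the genes. The genes of both factors and the receptor's partners were also looked up. Qk had a Qki-5-alone peak of 11 (7.043 to 16.36) before its start, and Ppard a shared site at its start of 7.79 and 6.53, with a further Qki-5 peak of 6.87 inside. Rxrb had a shared site of 11.9 and 7.61, and Rxra and Rxrg had none. Over 42 genes of nuclear receptors, RXR partners and coregulators the shared sites at Ppard and Rxrb were the only 2 (4.76%), and 12 had Qki-5 alone. In the STAR family of 5 genes Qk and Sf1 (12.8) had Qki-5 alone.

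Marker genes of other brain cells had few sites at their gene points, where 27.9% of all protein-coding genes had one of any class. None of 14 precursor and 15 neuron marker genes had such a site, which allows shares of up to 23.2% and 21.8%. Sites farther away, such as the PPARb-alone one 15475 bp before Aldh1l1, were not counted. Of 13 astrocyte markers 1, Glul, had a shared site (10.5 and 7.61), which is glutamine synthetase and is made by oligodendrocytes too. Of 15 microglia markers 1 had Qki-5 alone, and of 13 endothelial and mural markers 2 had, Cldn5 (5.95) and Flt1 (5.5). Of 30 genes of other tissues 1, Apoa2, had a shared site (11.9 and 7.61). Peaks mark bound DNA and not the amount of RNA, so these counts describe the sites and do not measure the purity of the cells.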

How the data were processed

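ChIP-seq of Qki-5 and PPARb in oligodendrocytes from mouse brain was analysed from 2 deposited peak lists, beside 4 lists of differentiated cells, with 1 library per group. Per the submitters' processing notes the tools were HOMER 4.10.1, SAMtools 1.8, Bowtie 1.2.2, bcl2fastq 2.19.1.403 and Trim Galore 0.4.4, and the build was mm10. Per the file headers, the authors called 200 bp peaks with HOMER findPeaks (factor style, false discovery rate 0.001, 4-fold and Poisson p 0.0001 over input, 4-fold over the surrounding 10000 bp, at least 400 bp between peaks). The name of the input's tag directory includes merge, without naming the parts.

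Height is the deposited normalized tag count, a signal that the authors scaled to 10000000 tags. Raw tag counts per peak and the 2 fold values, which are ratios over input and over the local region, were deposited too. The median raw count was 27 tags at shared and 19 at Qki-5-alone sites, and 15 and 14 tags for shared and unpaired PPARb peaks, so single heights carry wide Poisson intervals.

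Peaks on chromosomes 1 to 19, X and Y were paired one to one by centre, nearest first, at less than 200 bp. The same distance linked sites to the differentiated-cell lists. Gene positions and promoter starts came from RefSeq tables of GRCm38.p6. Of 736 entries in 25 gene lists 735 matched. The pairing, gene-window and Poisson interval code was tested on simulated data, and the motif search was not. Python 3.11.15, numpy 2.4.6, pandas 2.3.3, scipy 1.17.1 and matplotlib 3.10.9 were used. Intervals are at 95%, exact Clopper-Pearson for shares and exact Poisson for heights.

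Genes were named by rule: 16 in any case, the 15 shared sites with the highest smaller percentile, the 10 tallest of each unpaired class, the 5 widest rank gaps each way, per list up to 3 members with a shared site or else 2 without, and the promoters printed. Genes with a PPARb-alone peak, the X-linked PPARb peaks, Kmt2a, Mrpl47 and Galnt2, and the lineage factors with Qki-5 alone, were added after their values were seen. Some genes that the rule names are not reported here. The members and the lists were chosen with earlier results of these data known. Alternatives covered the pair distance, an 8-fold filter, lists of equal length, the fold in place of height, the gene window and the differentiated-cell lists used. Peaks elsewhere in the assembly were left out, as was any test, since peaks are not replicates.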

Additional observations from a re-analysis of the deposited data

Results flagged for a closer look

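Both lists held peaks on unplaced sequences, outside the chromosomes compared. There were 5 such Qki-5 peaks, of heights 6.87 to 15.1 and folds over input of 4.19 to 6.15, and 2 PPARb peaks, both at 8.16 and 6.64-fold. Of these, 0 formed a pair. They lie above the input by the authors' filter, and no replicate is there to check them.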

How the results depend on the processing

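Over 13 alternatives, 42 of 82 recomputed values stayed within the counting interval of the value reported, or within 1.5 times it for the gene count. Another 39 were labelled as moved and 1 as reversed. The moved ones include the height differences in fold over input, which have another unit and were not set against an interval. With pairs at most 50, 100, 500 and 1000 bp apart, the partner share of the PPARb list was 41.0%, 61.8%, 82.5% and 83.2% and of the Qki-5 list 6.81%, 10.3%, 13.7% and 13.8%. The excess of shared over PPARb-alone sites at gene points was then 11.8, 19.3, 36.6 and 38.6 percentage points (20.6 with a 5000 bp window). For any differentiated-cell peak that excess was 8.94 and 12.4 points at 50 and 100 bp, and 528 genes had a shared site at 50 bp. Peaks at least 8-fold over input gave 59.4% and 7.48%, height differences of 3.18 for Qki-5 and 0 for PPARb, 8.32 points at gene points against Qki-5 alone, 9.78 and 15.3 points for differentiated-cell peaks against Qki-5 and PPARb alone, and 179 genes. As many tallest Qki-5 peaks as PPARb peaks gave 30.1% of either list, a Qki-5 difference of 0.4, rho = 0.25 and 446 genes. For differentiated-cell peaks they gave 0.457 and 15.5 points. The value labelled as reversed was their Qki-5 difference at gene points, at -2.37 (-6.21 to 1.05), an interval that spans both signs. With fold over input in place of height the differences were 2.24 and 0.23 in that unit. Chosen after seeing the data, sites at gene points gave differentiated-cell excesses of 3.94 and 11.1 points and a Qki-5 height difference of 3.2; the other sites gave 26.4 points against Qki-5 alone and differences of 2.29 and 0.54. The shorter lists hold fewer sites by construction, and other causes were not tested. No paired analysis was possible because each group had 1 library. The PPARb library limits the absence of partners.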
